A study of Mus musculus with 12 samples.

Results

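The response of telomerase-deficient mouse liver to the alkylating mutagen ENU (N-ethyl-N-nitrosourea) was measured by RNA sequencing in 6 of the 12 libraries of the study. The libraries were chosen by their labels, 3 from Tert-/- mice given ENU and 3 from Tert-/- mice given saline. All 6 came from G1 Tert-/- animals of the mixed strain C57BL/6/129/SvJ, so the controls carried the same deletion. Per the labels' protocols, the mice were matched for age, received 150 µg ENU per g or saline by intraperitoneal injection, and had their livers removed 24 h afterwards. The other 6 libraries, 3 from wild-type (WT) mice given saline and 3 from WT mice given ENU under the same protocol, were used only for comparison. The labels give neither the sex nor the age of the animals and do not say that each library is a separate animal. If some are not, the tests below rest on a spread that may be technical. Values are FPKM (fragments per kilobase of transcript, scaled to library size). Of 49584 genes in the table, 11707 reached 1 FPKM or more in 3 or more of the 6 libraries and were tested.

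ENU transfers ethyl groups to DNA bases. Such lesions are reversed by the alkyltransferase MGMT or removed by excision repair, and those that block replication or transcription activate the kinases ATM and ATR. These stabilise the transcription factor p53, which induces genes of cell cycle arrest, apoptosis and repair, and its own inhibitor Mdm2. Tert is the catalytic subunit of telomerase, which extends chromosome ends. G1 knockout mice are the first generation without the enzyme and inherit telomeres from parents that still carried it.

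Promoter windows of a few genes that the results turn on are printed here because the members that changed most are textbook p53 targets. Every window printed holds a match, so the display does not show how common matches are. Those shares follow the sequences. Windows of Phlda3 and Eda2r, whose increases were also among the largest, are not printed. They come from RefSeq (build GRCm38.p6) and run 5′ to 3′ from 250 bases before to 50 bases after a start site. Capitals mark matches to the p53 half-site, searched on both strands, and, in Hamp, the letters GGCGCC, a BMP-responsive element of the hepcidin gene, also searched on both strands. The Cdkn1a window is chr17:29090729-29091028 on the plus strand, with half-sites that begin 73 and 51 bases before the start. For Ccng1 it is chr11:40755237-40755536 on the minus strand, with 1 half-site 185 bases before the start. For Aen it is chr7:78895808-78896107 on the plus strand, with 1 half-site 121 bases before the start. Another Aen window, chr7:78895677-78895976, has an earlier start, and the same half-site begins 10 bases after it. For Hamp it is chr7:30943980-30944279 on the minus strand, with the element 109 bases before the start.
Cdkn1a: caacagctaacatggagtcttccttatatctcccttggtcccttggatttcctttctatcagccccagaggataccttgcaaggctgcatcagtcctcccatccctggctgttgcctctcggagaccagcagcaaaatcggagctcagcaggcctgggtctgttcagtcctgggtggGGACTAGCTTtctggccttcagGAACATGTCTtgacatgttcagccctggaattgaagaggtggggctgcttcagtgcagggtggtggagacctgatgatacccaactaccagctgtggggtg
Ccng1: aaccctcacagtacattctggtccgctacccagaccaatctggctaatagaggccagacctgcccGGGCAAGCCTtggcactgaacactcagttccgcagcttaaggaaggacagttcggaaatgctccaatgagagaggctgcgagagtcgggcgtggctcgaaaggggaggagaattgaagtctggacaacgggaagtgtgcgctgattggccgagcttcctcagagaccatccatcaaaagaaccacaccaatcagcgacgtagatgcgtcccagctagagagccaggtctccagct
Aen: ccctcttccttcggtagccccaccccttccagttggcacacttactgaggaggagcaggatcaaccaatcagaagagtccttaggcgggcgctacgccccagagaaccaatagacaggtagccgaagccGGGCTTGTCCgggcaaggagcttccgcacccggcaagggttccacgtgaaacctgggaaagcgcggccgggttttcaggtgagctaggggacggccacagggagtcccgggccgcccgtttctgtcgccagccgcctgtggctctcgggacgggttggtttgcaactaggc
Hamp: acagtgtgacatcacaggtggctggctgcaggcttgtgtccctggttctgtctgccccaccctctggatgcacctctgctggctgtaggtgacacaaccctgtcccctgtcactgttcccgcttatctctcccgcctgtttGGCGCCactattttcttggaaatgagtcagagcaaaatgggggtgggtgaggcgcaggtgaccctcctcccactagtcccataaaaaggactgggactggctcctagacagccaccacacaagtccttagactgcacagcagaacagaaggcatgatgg
The half-site occurred in 8.36% of 32851 RefSeq windows and in 706 of the 8483 tested genes with a window (8.32%). Of genes with a window that rose, it occurred in 7 of 35 in the 6-library fit described next and in 55 of 591 (9.31%) in the 5-library fit, the latter close to the share of tested genes. Among the 9 such genes of the p53 lists in the 6-library fit it occurred in 4. GGCGCC occurred in 11.9% of all windows and in 24.4% of tested genes. A match describes these letters in this window and is not evidence of binding.

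The libraries held 31725120 to 43395530 reads in genes. Saline replicate 2 stood apart from the other 5. It had reads in 17486 genes, against 19637 to 20160 elsewhere, and 29.53% of its reads fell in its 20 most abundant genes, against 17.39 to 21.69%. Its median-ratio size factor was 0.685, against 1.04 to 1.15. Its median correlation with its own group was 0.926, against 0.946 and 0.958 for the other saline libraries and at least 0.982 within ENU. Results are therefore given for all 6 libraries (the 6-library fit) and for the 5 left without saline replicate 2 (the 5-library fit). The liver markers Alb and Apoa2 were among the most abundant transcripts in every library, and the 15 hepatocyte markers summed to 69680.0 to 140610.0 FPKM. Xist stayed at or under 0.087 FPKM and the Y-linked genes Ddx3y and Eif2s3y were above 3.9 FPKM in every library. The labels give no batch or date.

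Reads were still assigned to Tert (chromosome 13, 73627001 to 73649041, mm10) in every knockout library. It stood at 0.443, 0.304 and 0.734 FPKM in saline replicates 1 to 3, from 56, 33 and 89 reads, and at 1.62, 1.23 and 1.11 FPKM in ENU replicates 1 to 3, from 201, 170 and 165 reads. WT libraries held 3.18, 3.22 and 1.61 FPKM in saline and 6.23, 5.69 and 4.70 FPKM after ENU. The deposited values count whole genes, so reads outside the deleted part cannot be told apart from intact transcripts. Tert passed the 1 FPKM filter through the Tert-/- ENU libraries alone, so every ENU value there had to lie above every saline value. In Tert-/- liver the difference did not pass the test: log2 fold change 0.64 (SE 0.19, adjusted p = 0.194) with 6 libraries and 0.55 (SE 0.19, adjusted p = 0.114) with 5. The WT libraries alone gave 0.86 (SE 0.21, adjusted p = 0.0459) by limma. The Tert-/- effect minus the WT effect was -0.22 (SE 0.3, adjusted p = 0.852). Without Tert-/- saline replicate 2 it was -0.31 (SE 0.29, adjusted p = 0.662).

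Across the 11707 genes, limma called 48 higher (0.41%) and 10 lower (0.0854%) after ENU in the 6-library fit, at a Benjamini-Hochberg adjusted p under 0.05. Together these were 0.495% of the genes. In the 5-library fit it called 791 higher (6.76%) and 212 lower (1.81%), together 1003 (8.57%), and all 58 genes of the 6-library fit were among them. Leaving out any other library lowered the count of 58: to 6 and 15 without saline replicates 1 and 3, and to 11, 5 and 7 without ENU replicates 1, 2 and 3. The values of the 3 ENU libraries lay above all 3 saline libraries in 2956 genes (25.2%) and below them in 741 (6.33%). With 2 saline libraries the counts were 3568 (30.5%) and 1968 (16.8%). The median estimate over all 11707 genes was 0.25 (log2) with 6 libraries and 0.08 with 5, the reference for the list medians below. For list counts the reference is the shares of all genes called, 0.41% higher and 0.0854% lower with 6 libraries and 6.76% and 1.81% with 5. Rescaling by median ratio moved the 6-library median to 0.00, and of its 34 calls 25 were higher (73.5%, against 82.8% before rescaling). Quantile normalization called 40 higher and 19 lower (67.8% higher). In the 5-library fit the calls were 78.9% higher as deposited and 61.4% after median-ratio rescaling (486 higher, 305 lower). Estimates were higher for longer transcripts (Spearman correlation 0.378 across 11693 genes, which are not independent replicates), and the correlation was 0.094 without saline replicate 2. Of the tested genes, 100 passed the 1 FPKM filter through the ENU libraries alone and 38 through the saline libraries alone, and these hold 18 of the 48 higher and 5 of the 10 lower calls of the 6-library fit. Such genes could enter the test only where the groups differed, so counts that include them are a description. In whole tissue, fewer cells of a type and less RNA per cell cannot be told apart.

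**Figure D1:**
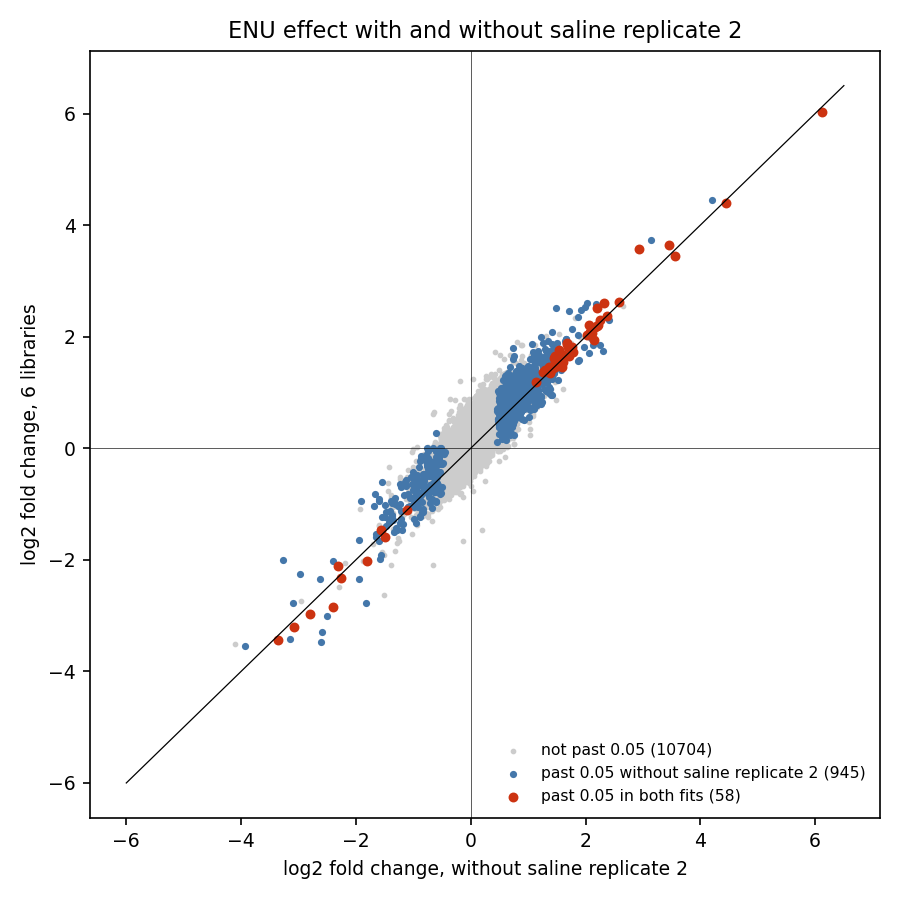
Log2 fold change of ENU against saline for each of 11707 genes, with all 6 Tert-/- libraries (vertical axis) and without saline replicate 2 (horizontal axis); the diagonal marks equality. The 58 red genes passed an adjusted p of 0.05 in both fits and lie near the diagonal, and the 945 blue genes passed in the 5-library fit only.

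The largest increases called in the 6-library fit were those of Cdkn1a and Phlda3, both p53 targets. Cdkn1a, which encodes the cyclin-dependent kinase inhibitor p21 and halts cells before S phase, lies at chromosome 17, 29090979 to 29100722 (mm10). It stood at 1.18, 1.43 and 0.917 FPKM in the saline libraries and at 112, 225 and 111 FPKM in the ENU libraries, counted from 51, 53 and 38 and 4745, 10640 and 5635 reads. Every ENU library was far above every saline library, and ENU replicate 2 was the highest. For Cdkn1a the log2 fold change was 6.04 (SE 0.31, adjusted p = 0.00109) with 6 libraries and 6.12 (SE 0.31, adjusted p = 0.000885) with 5. Its promoter window above holds a pair of half-sites.

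Phlda3, a repressor of Akt signalling (chromosome 1, 135766119 to 135769136), went from 1.84, 1.48 and 0.875 to 43.1, 56.2 and 48.7 FPKM. That was 4.4 (SE 0.24, adjusted p = 0.00109) on the log2 scale with 6 libraries and 4.44 (SE 0.2, adjusted p = 0.000885) with 5. Eda2r, which encodes the receptor for ectodysplasin A2, was close to silent in saline, at 0.0833, 0.0138 and 0.161 FPKM from 7, 1 and 13 reads, and stood at 5.601, 5.87 and 5.62 FPKM after ENU. Its 3 ENU libraries were nearly equal, and the log2 fold change was 2.63 (SE 0.18, adjusted p = 0.00249), or 2.58 (SE 0.14, adjusted p = 0.000885) without saline replicate 2. Cdkn1a, Phlda3 and Eda2r passed the threshold in all 17 alternative settings tried, the only named genes to do so. No other named gene that rose passed more than 13 of its alternatives.

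Of 11 tested p53 targets of cell cycle arrest, 5 rose and 0 fell in the 6-library fit, and 7 rose and 0 fell in the 5-library fit. Their median log2 fold change was 1.45 with 6 libraries and 1.42 with 5, against 0.25 and 0.08 for all genes. With the 6 libraries rescaled by median ratio, 3 rose. Psrc1 and Gtse1, 2 of the 5 called in the 6-library fit, passed the 1 FPKM filter through the ENU libraries alone. Ccng1, the gene of cyclin G1, stood at 12.1, 7.51 and 16.3 FPKM in saline and 70.2, 82.4 and 71.7 FPKM after ENU. Saline replicate 2 was the lowest of the saline libraries, and the estimate was 2.6 (SE 0.28, adjusted p = 0.02197) with it and 2.33 (SE 0.16, adjusted p = 0.00249) without it. Psrc1, a microtubule regulator, went from 0.0248, 0.144 and 0 to 1.85, 2.02 and 2.36 FPKM, a log2 fold change of 1.54 (SE 0.17, adjusted p = 0.0243) or, with 5 libraries, 1.6 (SE 0.17, adjusted p = 0.00823). Gtse1, which binds microtubules and restrains p53 in G2 phase, went from 0.339, 0.255 and 0.343 to 2.29, 3.29 and 2.24 FPKM (1.45 (SE 0.19, adjusted p = 0.0398); 5 libraries, 1.42 (SE 0.19, adjusted p = 0.0147)). Among members named after their values were seen, the sestrin gene Sesn2 rose in both fits, from 1.74, 1.63 and 2.42 to 8.18, 9.61 and 6.35 FPKM (1.62 (SE 0.24, adjusted p = 0.0447); 5 libraries, 1.55 (SE 0.19, adjusted p = 0.0139)). The polo-like kinase gene Plk2 stood at 2.496, 1.78 and 3.39 FPKM in saline and 12.6, 19.3 and 9.41 after ENU. Plk2 rose in the 5-library fit by 1.86 (SE 0.28, adjusted p = 0.0181) and missed the threshold with 6 libraries (adjusted p = 0.0511).

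Of 13 tested p53 targets of apoptosis, 4 rose in the 6-library fit and 6 in the 5-library fit, and 0 fell in either. The list's median was 0.72 with 6 libraries and 0.56 with 5. Of those called, Eda2r and Tnfrsf10b passed the 1 FPKM filter through the ENU libraries alone. Aen, an apoptosis-enhancing nuclease, stood at 8.39, 3.93 and 8.33 FPKM in saline and 42.2, 49.3 and 35.98 FPKM after ENU. For Aen the log2 fold change was 2.51 (SE 0.3, adjusted p = 0.03303), or 2.21 (SE 0.15, adjusted p = 0.00249) without saline replicate 2, the lowest saline library. Tnfrsf10b, the death receptor for TRAIL, went from 0.162, 0 and 0.0891 to 1.29, 1.87 and 1.28 FPKM, which passed narrowly in both fits at 1.19 (SE 0.18, adjusted p = 0.0487) and 1.13 (SE 0.19, adjusted p = 0.0237). Bax, a pore former of the mitochondrial outer membrane, stood at 27.8, 45.3 and 15.9 FPKM in saline, with replicate 2 the highest, and 93.3, 89.2 and 90.5 FPKM after ENU. Bax did not pass with 6 libraries (1.7 (SE 0.35, adjusted p = 0.105)) and rose with 5 (2.06 (SE 0.22, adjusted p = 0.00823)). Trp53inp1, a p53-induced nuclear protein gene named after its values were seen, stood at 20.8, 6.22 and 16.5 FPKM in saline and 59.9, 56.9 and 102 FPKM after ENU. It rose in the 5-library fit by 1.87 (SE 0.26, adjusted p = 0.0167) and did not pass with 6 (adjusted p = 0.0918). The death receptor gene Fas stood at 17.8, 14.8 and 12.1 FPKM and 14.1, 20.98 and 15.8 FPKM, and its groups overlapped (adjusted p = 0.695, and 0.628 with 5 libraries).

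Of 7 tested members of the list of p53 and its feedback partners, 1 rose in the 6-library fit and 2 in the 5-library fit. Trp53 transcripts stood at 7.98, 8.18 and 7.71 FPKM in saline and 11.7, 9.32 and 11.5 FPKM after ENU. The groups did not overlap, but the log2 fold changes of 0.4 (SE 0.2, adjusted p = 0.354) and, with 5 libraries, 0.41 (SE 0.14, adjusted p = 0.102) did not pass. Mdm2, the ubiquitin ligase that degrades p53, went from 19.3, 7.103 and 22.3 to 51.7, 72.3 and 38.4 FPKM, which passed only without saline replicate 2 (1.77 (SE 0.43, adjusted p = 0.141); 5 libraries, 1.3 (SE 0.25, adjusted p = 0.0318)). Ddias, a suppressor of damage-induced apoptosis, was in the same list and rose in both fits, from 0.171, 0 and 0.579 to 4.49, 5.39 and 4.23 FPKM (2.21 (SE 0.23, adjusted p = 0.0186); 5 libraries, 2.06 (SE 0.19, adjusted p = 0.00645)). Ddias passed the 1 FPKM filter through the ENU libraries alone.

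Of 12 tested p53 targets of repair and metabolism, 1 rose in the 6-library fit and 3 in the 5-library fit. The member that passed in both was the gene of D-glutamate cyclase, listed as 9030617O03Rik. It stood at 17.005, 13.6 and 25.3 FPKM in saline and 73.2, 59.2 and 73.3 FPKM after ENU (1.86 (SE 0.26, adjusted p = 0.0413); 5 libraries, 1.67 (SE 0.19, adjusted p = 0.0106)). Polk, a translesion DNA polymerase gene, was at 1.34, 0.162 and 1.93 and 3.76, 5.36 and 4.97 FPKM, and Ercc5, an excision repair nuclease gene, at 10.4, 6.297 and 10.4 and 17.0, 16.4 and 14.9 FPKM. Both rose without saline replicate 2, by 1.11 (SE 0.19, adjusted p = 0.0237) and 0.59 (SE 0.11, adjusted p = 0.0326), and neither passed with it (adjusted p = 0.135 and 0.195).

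**Figure D2:**
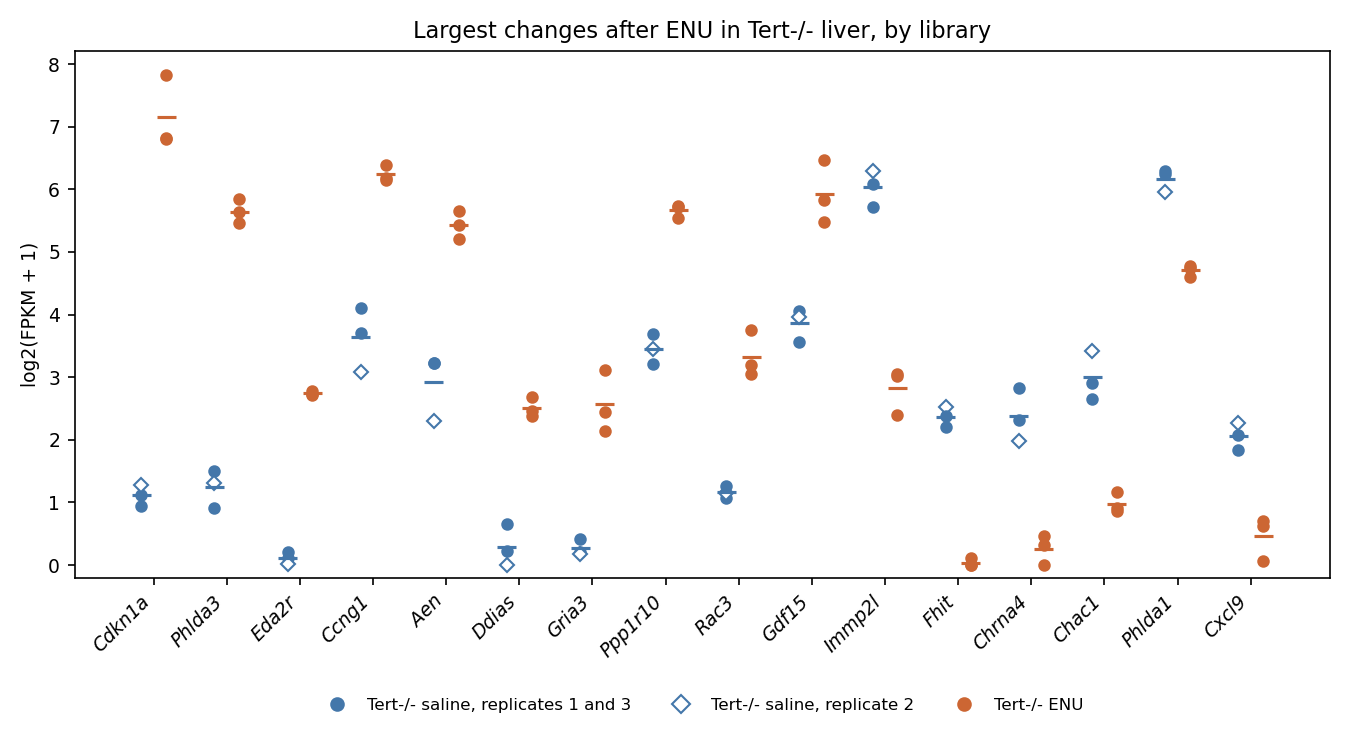
Levels, as log2(FPKM + 1), of 16 genes that changed in the 6-library fit, in each Tert-/- library; blue points are saline (the open diamond is replicate 2), orange points are ENU and bars are group means over 3 libraries. Cdkn1a stands at 1.18, 1.43 and 0.917 FPKM in saline and 112, 225 and 111 FPKM after ENU. The 16 genes were picked among those whose groups do not overlap.

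Other large increases lay outside the p53 lists. Ppp1r10, which encodes the phosphatase-targeting subunit PNUTS, stood at 11.9, 9.92 and 8.26 FPKM in saline and 51.5, 52.4 and 45.4 FPKM after ENU. For Ppp1r10 the estimate was 2.21 (SE 0.21, adjusted p = 0.0101) with 6 libraries and 2.21 (SE 0.17, adjusted p = 0.00283) with 5. Gria3, a glutamate receptor subunit gene, went from 0.1498, 0.128 and 0.337 to 3.41, 7.71 and 4.42 FPKM (2.3 (SE 0.28, adjusted p = 0.03303); 5 libraries, 2.26 (SE 0.29, adjusted p = 0.0145)). Atp8b5, a phospholipid flippase gene, went from 0.126, 0.169 and 0.141 to 3.72, 4.94 and 4.04 FPKM (2.19 (SE 0.18, adjusted p = 0.00595); 5 libraries, 2.2 (SE 0.16, adjusted p = 0.00283)). In both genes saline values lay under 0.4 FPKM, and both passed the 1 FPKM filter through the ENU libraries alone. Rac3, a small GTPase gene, went from 1.09, 1.23 and 1.39 to 12.4, 8.16 and 7.28 FPKM (2.17 (SE 0.25, adjusted p = 0.0266); 5 libraries, 2.17 (SE 0.22, adjusted p = 0.00803)). Gdf15, a stress hormone that suppresses appetite and a known p53 target, went from 15.7, 14.6 and 10.8 to 43.4, 55.97 and 87.9 FPKM, and ENU replicate 3 was the highest (2.07 (SE 0.3, adjusted p = 0.0426); 5 libraries, 2.12 (SE 0.3, adjusted p = 0.0167)).

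Lgals4, a galectin gene, stood at 7.33, 11.9 and 6.94 FPKM in saline and 35.6, 37.6 and 32.4 FPKM after ENU (1.93 (SE 0.25, adjusted p = 0.03497); 5 libraries, 2.15 (SE 0.12, adjusted p = 0.000885)). Ces2e, a carboxylesterase gene, stood at 67.2, 40.6 and 58.8 and 209, 191 and 214 FPKM (1.89 (SE 0.23, adjusted p = 0.03303); 5 libraries, 1.68 (SE 0.13, adjusted p = 0.00283)). Ces2e belongs to a family of close paralogues, so reads may be shared. Jak3, a cytokine receptor kinase gene, stood at 8.74, 4.65 and 4.63 and 22.7, 22.6 and 23.5 FPKM (1.82 (SE 0.27, adjusted p = 0.0447); 5 libraries, 1.69 (SE 0.22, adjusted p = 0.0147)). Among other genes called in both fits and named after their values were seen, Setd4, a methyltransferase gene, stood at 4.57, 3.57 and 4.195 and 14.1, 14.9 and 17.1 FPKM. Kctd17, an adaptor of a ubiquitin ligase, stood at 4.87, 4.59 and 3.96 and 13.5, 16.3 and 12.3 FPKM, and Eps8l2, an actin-binding protein gene, at 16.7, 10.3 and 16.5 and 50.96, 51.2 and 48.1 FPKM. Their log2 fold changes were 1.68 (SE 0.21, adjusted p = 0.0336), 1.45 (SE 0.21, adjusted p = 0.0447) and 1.75 (SE 0.23, adjusted p = 0.0398), and 1.6, 1.47 and 1.54 with 5 libraries.

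Fewer genes fell. Immp2l, a mitochondrial inner membrane peptidase gene, spans 931499 bases (chromosome 12, 41024090 to 41955588). It stood at 66.5, 77.8 and 51.5 FPKM in saline and 7.29, 4.26 and 7.12 FPKM after ENU, from 178, 116 and 209 reads. For Immp2l the log2 fold change was -3.21 (SE 0.27, adjusted p = 0.00595) with 6 libraries and -3.07 (SE 0.23, adjusted p = 0.00283) with 5. Fhit, a diadenosine triphosphate hydrolase gene at a common fragile site (chromosome 14, 9550092 to 11162035), spans 1611944 bases. Fhit went from 3.59, 4.74 and 4.205 FPKM, or 90, 102 and 101 reads, to 0.0816, 0 and 0 FPKM, or 2, 0 and 0 reads (-2.33 (SE 0.18, adjusted p = 0.00472); 5 libraries, -2.25 (SE 0.17, adjusted p = 0.00283)). Over all libraries the ENU group held 2 Fhit reads against 293, which per total reads was 0.592% of the saline level (exact 95% interval 0.0714 to 2.16%, for counting error only). Fhit passed the 1 FPKM filter through the saline libraries alone. Immp2l and Fhit were the decreases that held under the most alternatives, 15 of 17 for Immp2l and 14 of 16 for Fhit.

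Among genes of the longest genomic span, decreases outnumbered increases in the 5-library fit. Of 90 tested genes that span over 400 kb, 18 fell and 1 rose in the 5-library fit, against 1.81% lower among all genes, and their median log2 fold change was -0.24. With 6 libraries 2 of the 90 fell (Immp2l and Fhit), 0 rose and the median was 0.03. Of the 1110 genes of 100 to 400 kb, 33 fell and 50 rose in the 5-library fit. The shorter genes had 91 lower and 487 higher of 6922 (10 to 100 kb), and 70 lower and 253 higher of 3585 (under 10 kb). Named after their values were seen, the pyrimidine catabolism gene Dpyd stood at 310.2, 82.8 and 335 FPKM in saline and 110.1, 76.8 and 116 FPKM after ENU (-1.69 (SE 0.2, adjusted p = 0.0106) with 5 libraries; adjusted p = 0.347 with 6). Its value in saline replicate 2 was close to the ENU values, unlike replicates 1 and 3. The peptidase gene Cpq stood at 27.8, 22.6 and 38.3 and 13.6, 10.8 and 11.8 FPKM, and the oxidoreductase gene Wwox, at another fragile site, at 5.56, 2.56 and 4.89 and 2.01, 1.54 and 2.21 FPKM. Cpq and Wwox fell with 5 libraries, at -1.37 (SE 0.17, adjusted p = 0.013000) and -1.1 (SE 0.16, adjusted p = 0.0173), and not with 6 (adjusted p = 0.105 and 0.218). Exoc4, an exocyst subunit gene, was the 1 gene over 400 kb that rose, from 5.92, 3.79 and 9.71 to 23.6, 31.3 and 23.5 FPKM (1.64 (SE 0.22, adjusted p = 0.0149) with 5 libraries; adjusted p = 0.0633 with 6).

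**Figure D3:**
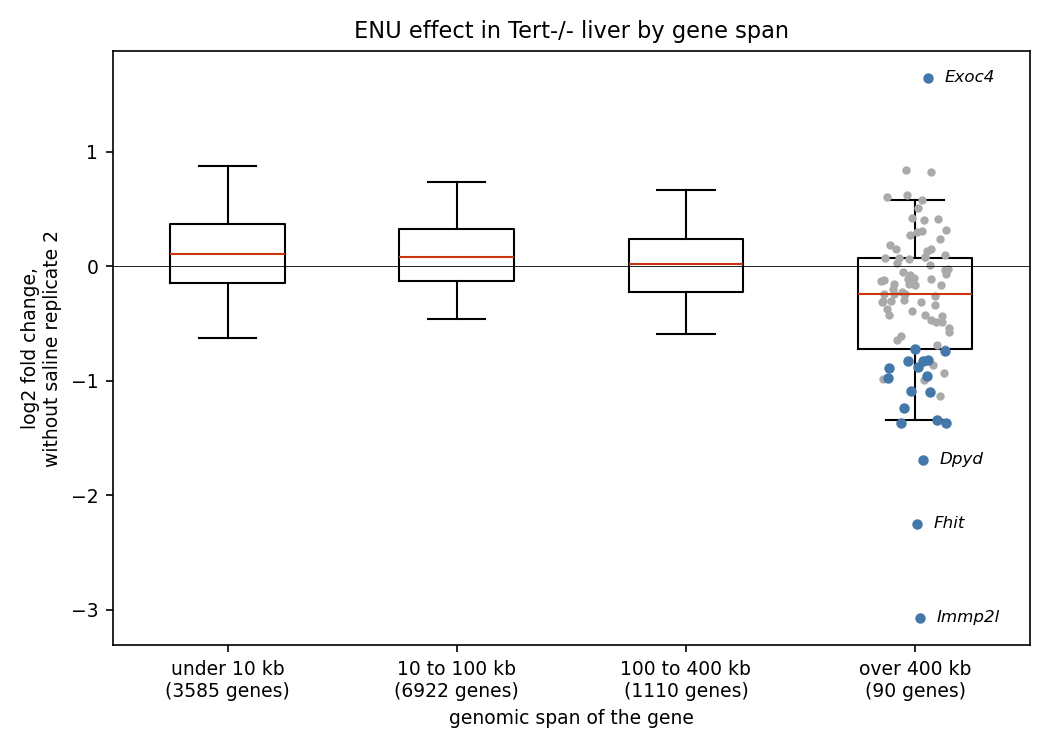
Log2 fold change of ENU against saline in the 5-library fit, by genomic span of the gene; boxes give the median (red line) and quartiles, whiskers the 5th and 95th percentiles, and the 90 genes over 400 kb are also drawn as points, blue where the adjusted p was under 0.05. The median of the longest class is -0.24, and 18 of its 19 blue points lie below 0.

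Among the other decreases, Chrna4, a nicotinic receptor subunit gene, went from 6.06, 2.95 and 3.98 to 0.252, 0 and 0.378 FPKM (-2.11 (SE 0.27, adjusted p = 0.0346); 5 libraries, -2.31 (SE 0.23, adjusted p = 0.00727)). Chac1, a glutathione-degrading enzyme gene induced by amino acid stress, went from 6.53, 9.74 and 5.28 to 0.812, 0.879 and 1.25 FPKM (-2.02 (SE 0.26, adjusted p = 0.0355); 5 libraries, -1.8 (SE 0.17, adjusted p = 0.00685)). Phlda1, a pleckstrin-homology protein gene, went from 74.8, 61.4 and 77.4 to 23.3, 25.8 and 26.4 FPKM (-1.46 (SE 0.19, adjusted p = 0.0364); 5 libraries, -1.56 (SE 0.11, adjusted p = 0.00283)). Cxcl9, an interferon-induced chemokine, went from 2.58, 3.81 and 3.21 to 0.544, 0.0457 and 0.636 FPKM (-1.59 (SE 0.24, adjusted p = 0.04899); 5 libraries, -1.49 (SE 0.24, adjusted p = 0.0217)). Atg10, an enzyme of autophagosome formation, went from 2.27, 2.37 and 2.35 to 0.637, 0.447 and 0.544 FPKM (-1.11 (SE 0.17, adjusted p = 0.0498); 5 libraries, -1.11 (SE 0.16, adjusted p = 0.0173)). These 5 genes were picked among those whose groups did not overlap, so every ENU value lay below every saline value by that choice. Chrna4, Cxcl9, Atg10 and, given next, Mup-ps12 passed the 1 FPKM filter through the saline libraries alone. The major urinary protein pseudogenes Mup-ps20 and Mup-ps12 also fell, at -3.43 and -2.85 on the log2 scale (adjusted p = 0.0413 and 0.0398), and by -3.36 and -2.4 with 5 libraries. Their reads may belong to other Mup copies, so these calls are uncertain. The male-biased Mup7 stood at 11805, 19157 and 10535 FPKM in saline and 7752, 5725 and 4202 FPKM after ENU, and 0 of 13 male-biased liver genes were called in either fit.

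Some genes of fatty acid oxidation rose and some of fatty acid synthesis fell, nearly all of them in the 5-library fit. PPARalpha is the nuclear receptor that drives fatty acid oxidation in the fasting liver. Of 31 of its targets and oxidation genes, 1 rose in the 6-library fit and 13 in the 5-library fit, and 0 fell. After median-ratio rescaling of the 5 libraries 9 rose. The list's median was 0.74 with 6 libraries and 0.71 with 5. In 22 of the 31 every ENU library lay above every saline library, against 25.2% of all genes, and in 1 every ENU library lay below. Of the 31, 2 passed the 1 FPKM filter through the ENU libraries alone, which fixed that order for them. Acot1, an acyl-CoA thioesterase gene, was the one called in both fits, from 2.52, 3.28 and 4.64 to 13.7, 24.9 and 14.5 FPKM (2.04 (SE 0.31, adjusted p = 0.0481); 5 libraries, 2.02 (SE 0.3, adjusted p = 0.0181)). Its near-identical paralogues may share reads, and it was not called after median-ratio rescaling of the 6 libraries.

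Cyp4a14, a fatty acid hydroxylase gene with close paralogues, stood at 0.939, 1.95 and 11.2 FPKM in saline, replicate 3 the highest, and 35.8, 199 and 98.5 FPKM after ENU. Its spread was wide in both groups, and it passed with 5 libraries (4.21 (SE 0.91, adjusted p = 0.0391)) and not with 6 (adjusted p = 0.0847). Crat, a carnitine acetyltransferase gene, went from 7.92, 9.53 and 6.99 to 29.8, 83.2 and 33.5 FPKM, and ENU replicate 2 was the highest (2.4 (SE 0.41, adjusted p = 0.0246) with 5 libraries; adjusted p = 0.0657 with 6). Plin2, a lipid droplet coat gene, stood at 282, 223 and 166 and 521, 687 and 538 FPKM and rose with 5 libraries (1.41 (SE 0.25, adjusted p = 0.0261); adjusted p = 0.084001 with 6). Angptl4, a secreted inhibitor of lipoprotein lipase, stood at 16.97, 60.1 and 18.9 FPKM, with replicate 2 well above the other saline libraries, and at 91.3, 89.8 and 95.05 FPKM (2.3 (SE 0.11, adjusted p = 0.000885) with 5 libraries; adjusted p = 0.152 with 6). The carnitine transporter gene Slc22a5 rose with 5 libraries by 1.05 (SE 0.16, adjusted p = 0.0191). The mitochondrial import genes Cpt1a and Cpt2, named after their values were seen, rose with 5 libraries by 0.96 (SE 0.16, adjusted p = 0.0234) and 0.83 (SE 0.14, adjusted p = 0.0237). None of these 3 passed with 6 libraries (adjusted p = 0.105, 0.157 and 0.118).

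Of 7 tested genes of ketone bodies and fasting hormones, 1 (Gdf15) rose with 6 libraries, or 0 after median-ratio rescaling, and 2 with 5. The second was Bdh1, which interconverts the ketone bodies, from 119.8, 107 and 102 to 230.3, 170.2 and 212 FPKM (0.87 (SE 0.17, adjusted p = 0.0318) with 5 libraries; adjusted p = 0.116 with 6). The fasting hormone gene Fgf21 was too low to be tested, at 0.114, 0.0331 and 0 FPKM in saline and 0.6697, 1.28 and 0.509 FPKM after ENU. It was higher in every ENU library.

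Of 17 fatty acid synthesis genes, 0 were called in the 6-library fit, and 0 rose and 8 fell in the 5-library fit. The list's median was -0.55 with 6 libraries and -1.12 with 5. Thrsp, a regulator of lipid synthesis, stood at 1779.7, 598 and 1017 FPKM in saline and 145, 28.1 and 158 FPKM after ENU, without overlap (-3.94 (SE 0.72, adjusted p = 0.0282) with 5 libraries; adjusted p = 0.0998 with 6). Scd1, the stearoyl-CoA desaturase gene, stood at 2610.2, 162 and 2044 FPKM in saline, where replicate 2 was within the ENU range, and at 244, 157 and 350.1 FPKM after ENU. For Scd1 the log2 fold change was -3.28 (SE 0.33, adjusted p = 0.00731) with 5 libraries and -2.0 (SE 0.98, adjusted p = 0.3395) with 6. Acss2, an acetyl-CoA synthetase gene, stood at 206, 103 and 142 and 58.4, 40.6 and 92.9 FPKM, and Acacb, an acetyl-CoA carboxylase gene, at 47.4, 13.4 and 21.4 and 11.8, 10.3 and 13.1 FPKM. Both fell with 5 libraries, at -1.48 (SE 0.34, adjusted p = 0.0452) and -1.38 (SE 0.31, adjusted p = 0.0421), and did not pass with 6 (adjusted p = 0.185 and 0.295). In Elovl6, Me1 and Acaca, enzymes of fatty acid elongation, NADPH supply and malonyl-CoA synthesis named after their values were seen, saline replicate 2 lay below every ENU library. Their levels were 127, 11.4 and 66.5, 162, 29.5 and 89.8 and 57.9, 15.03 and 40.9 FPKM in saline, and 29.4, 14.6 and 30.5, 38.4, 34.7 and 44.5 and 25.001, 16.9 and 24.6 FPKM after ENU. The 5-library fit called all 3 lower, by -1.91, -1.6 and -1.12 on the log2 scale (adjusted p = 0.0336, 0.0191 and 0.03303), and the 6-library fit none (adjusted p = 0.528, 0.398 and 0.517).

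The fatty acid synthase gene Fasn stood at 491, 86.7 and 250.2 FPKM in saline and 143, 75.6 and 198 FPKM after ENU and passed in neither fit (adjusted p = 0.521 and 0.0864). Fabp5, a fatty acid binding protein gene, stood at 58.1, 10.2 and 7.26 FPKM in saline, replicate 1 the highest, and 1.73, 1.84 and 1.22 FPKM after ENU (-3.1 (SE 0.72, adjusted p = 0.0476) with 5 libraries; adjusted p = 0.141 with 6). Many of these genes follow the daily cycle, and a clock measure was lower after ENU. The log2 ratio of Dbp to Arntl (1 FPKM added to each), clock genes with opposite daily peaks, was 5.26, 6.05 and 5.75 in saline and 4.08, 3.05 and 5.19 after ENU. The ratio was lower in every ENU library, narrowly so in replicate 3, and its part in these results was not tested. Arntl was too low to be tested, at 0.744, 0.264 and 0.636 FPKM in saline and 1.77, 2.94 and 0.843 FPKM after ENU. The ratio therefore depends much on the 1 FPKM added.

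**Figure D4:**
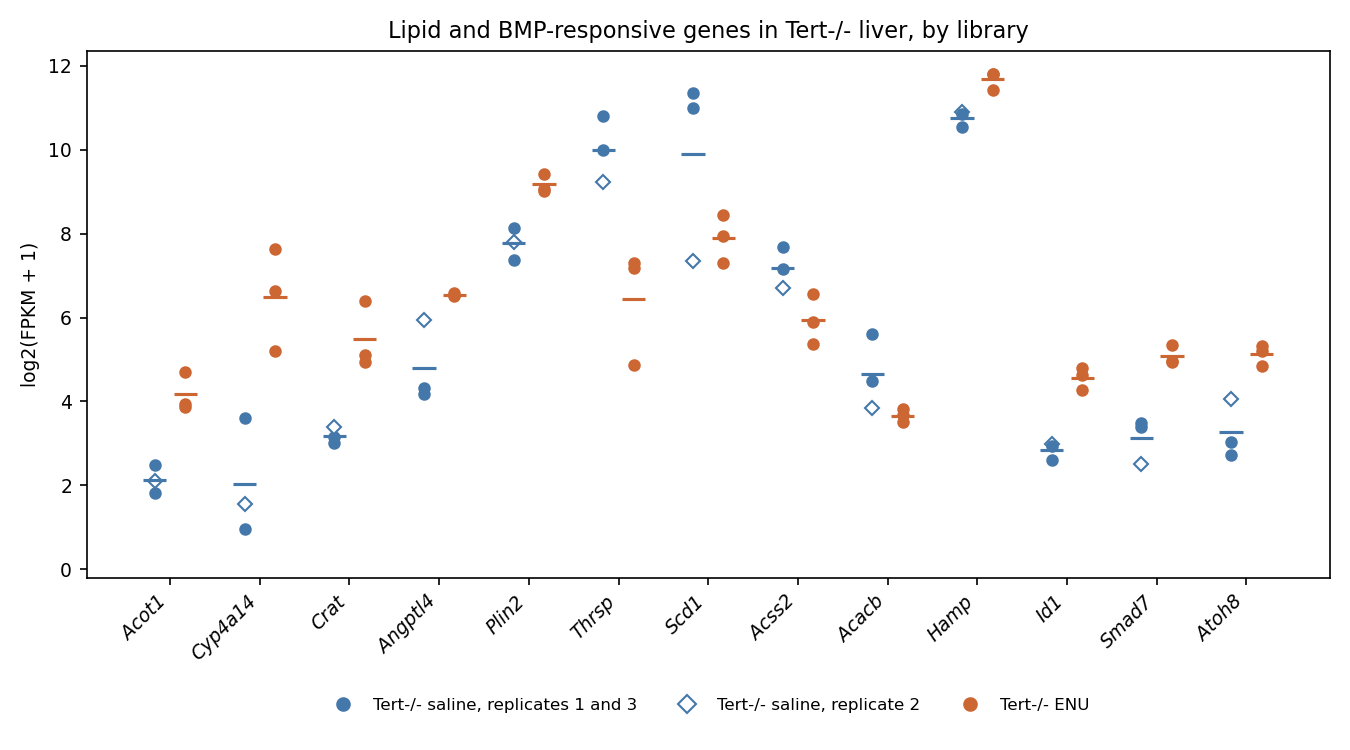
Levels, as log2(FPKM + 1), of 9 lipid genes and 4 genes that respond to bone morphogenetic proteins (Hamp, Id1, Smad7, Atoh8) in each Tert-/- library; blue points are saline (the open diamond is replicate 2), orange points are ENU and bars are group means over 3 libraries. Saline replicate 2 lies among the ENU libraries for Scd1. It lies between the other saline libraries and ENU for Crat, Angptl4, Thrsp, Acss2, Acacb, Hamp, Id1 and Atoh8.

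Of 24 cholesterol synthesis and uptake genes, 0 were called with 6 libraries and 2 rose with 5, close to the 6.76% higher among all genes. Srebf2, the transcription factor that induces the pathway, stood at 12.2, 7.0004 and 10.5 FPKM in saline and 22.3, 23.4 and 26.6 FPKM after ENU. It rose with 5 libraries by 1.02 (SE 0.13, adjusted p = 0.0143), against an adjusted p = 0.103 with 6. Rescaling the 5 libraries by median ratio gave 2 higher and 1 lower.

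Bone morphogenetic proteins (BMP) signal through SMAD factors to set hepcidin and thus iron uptake. Genes of the iron and hepcidin list, only some of which respond to BMP, were called in part, mostly in the 5-library fit. Of 19 iron and hepcidin genes, 1 rose with 6 libraries and 4 with 5, and 0 fell. With the 5 libraries rescaled by median ratio, 2 rose. Their median was 0.42 with 6 libraries and 0.29 with 5. Id1, a transcription inhibitor and direct SMAD target, went from 5.13, 6.89 and 6.64 to 23.7, 26.9 and 18.3 FPKM (1.72 (SE 0.23, adjusted p = 0.0413); 5 libraries, 1.79 (SE 0.19, adjusted p = 0.00823)). Smad7, the feedback inhibitor of the pathway, went from 10.2, 4.68 and 9.42 to 39.8, 29.8 and 30.2 FPKM (1.65 (SE 0.16, adjusted p = 0.00665) with 5 libraries, and just missed with 6, adjusted p = 0.0511). Hamp, the hepcidin gene whose promoter is printed above, stood at 1496, 1903 and 1843 FPKM in saline and 2767, 3615 and 3587 FPKM after ENU. Its groups did not overlap, and it passed with 5 libraries (0.99 (SE 0.22, adjusted p = 0.0427)) and not with 6 (0.92 (SE 0.23, adjusted p = 0.143)).

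Hfe2, which encodes the BMP co-receptor hemojuvelin, stood at 50.03, 52.5 and 46.2 and 70.6, 72.3 and 66.1 FPKM (0.53 (SE 0.11, adjusted p = 0.0386) with 5 libraries; adjusted p = 0.233 with 6). Atoh8, a transcription factor gene that responds to BMP and iron and is in no list used here, stood at 5.59, 15.6 and 7.25 FPKM in saline, replicate 2 the highest, and at 38.9, 27.95 and 35.98 FPKM after ENU (2.25 (SE 0.18, adjusted p = 0.00358) with 5 libraries; adjusted p = 0.0997 with 6). A further pair of genes was named after their values were seen. The ligand gene Bmp6 stood at 1.25, 0.8501 and 1.72 FPKM in saline and 3.29, 2.15 and 2.44 FPKM after ENU. Bmp6 was higher in every ENU library and passed in neither fit (adjusted p = 0.219 and 0.121). The hepcidin paralogue Hamp2, whose reads may be shared with Hamp, stood at 8.22, 9.26 and 137 FPKM in saline and 0.656, 0.941 and 1.75 FPKM after ENU. Hamp2 was lower in every ENU library and passed in neither fit (adjusted p = 0.168 and 0.0526).

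Of 15 genes of the growth hormone and IGF1 axis, 0 were called with 6 libraries, and 3 rose and 2 fell with 5. After median-ratio rescaling 1 rose and 2 fell with 5 libraries, and 1 fell with 6. Cish, a feedback inhibitor induced by growth hormone through STAT5, stood at 10.9, 7.77 and 8.41 FPKM in saline and 2.502, 2.95 and 2.998 FPKM after ENU. It fell with 5 libraries (-1.48 (SE 0.15, adjusted p = 0.00823)) and just missed with 6 (-1.39 (SE 0.22, adjusted p = 0.0511)). Bcl6, a repressor that opposes STAT5, stood at 5.55, 1.02 and 5.95 and 16.4, 16.6 and 10.4 FPKM and rose with 5 libraries (1.17 (SE 0.21, adjusted p = 0.0262); adjusted p = 0.175 with 6). The receptor gene Ghr, named after its values were seen, stood at 434, 207 and 473 FPKM in saline, with replicate 2 among the ENU values, and 256, 185 and 236 FPKM after ENU (-1.01 (SE 0.17, adjusted p = 0.0246) with 5 libraries; adjusted p = 0.368 with 6). The hormone gene Igf1 stood at 216, 223 and 279.7 and 204, 199 and 221 FPKM and passed in neither fit (adjusted p = 0.5799 and 0.342).

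Some genes of chromatin regulation and of receptor signalling rose in the 5-library fit. Saline replicate 2 held the lowest value in each of the 4 given next. Of 20 chromatin and transcription scaffold genes, 0 were called with 6 libraries and 9 rose with 5. The list's median was 0.96 with 6 libraries and 0.55 with 5. Gse1, a subunit of a histone demethylase complex, stood at 5.68, 0.557 and 7.25 FPKM in saline and 25.7, 19.8 and 24.6 FPKM after ENU (1.71 (SE 0.16, adjusted p = 0.00665) with 5 libraries; 2.46 (SE 0.59, adjusted p = 0.137) with 6). Bcl9l, a beta-catenin coactivator gene, stood at 7.63, 3.23 and 9.65 and 22.8, 22.04 and 25.5 FPKM (1.35 (SE 0.14, adjusted p = 0.00803); adjusted p = 0.103 with 6). Notch1, a receptor of cell-cell signalling, went from 6.05, 1.47 and 9.12 to 37.1, 29.9 and 33.1 FPKM (2.02 (SE 0.18, adjusted p = 0.00606) with 5 libraries; 2.61 (SE 0.49, adjusted p = 0.0912) with 6). Epha2, an ephrin receptor kinase gene, went from 14.5, 3.301 and 10.5 to 54.6, 40.7 and 63.3 FPKM (1.99 (SE 0.22, adjusted p = 0.00863) with 5 libraries; 2.53 (SE 0.46, adjusted p = 0.0887) with 6). The relation of estimates to transcript length was weaker without that library (above), and its part in the 6-library values was not tested.

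Of 15 receptor tyrosine kinase and Notch signalling genes, 3 rose and 1 fell with 5 libraries, and 0 with 6, and the median was 0.05 with 5. Besides Notch1 and Epha2, these were Fgfr4, the liver receptor for a bile acid hormone, at 31.7, 28.4 and 30.4 and 56.9, 54.02 and 58.7 FPKM, and the ephrin ligand gene Efna1, at 46.05, 73.7 and 36.6 and 18.4, 12.6 and 22.4 FPKM. Fgfr4 rose by 0.85 (SE 0.11, adjusted p = 0.0144) and Efna1 fell, at -1.2 (SE 0.24, adjusted p = 0.0334), with adjusted p-values of 0.101 and 0.114 in the 6-library fit.

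Few repair genes outside the p53 lists moved. Of 18 genes of alkyl reversal and base excision repair, 0 were called in either fit, with medians of 0.15 and 0.13. Mgmt, the alkyltransferase gene, stood at 6.73, 11.5 and 7.31 FPKM in saline and 10.1, 8.37 and 10.3 FPKM after ENU, and the groups overlapped (adjusted p = 0.696 and 0.109). Of 19 genes of nucleotide excision repair and translesion synthesis, 0 were called with 6 libraries and 4 rose with 5. They included Polk and Ercc5, given above, and the helicase gene Ercc2, at 4.27, 4.94 and 4.67 and 7.51, 6.698 and 6.88 FPKM (0.55 (SE 0.12, adjusted p = 0.0425); adjusted p = 0.256 with 6). After median-ratio rescaling of the 5 libraries 1 of them was called. Of 17 mismatch repair and replication genes 1 fell with 5 libraries. It was Rrm2, a subunit of ribonucleotide reductase, at 9.19, 2.41 and 9.33 and 5.46, 2.64 and 2.62 FPKM (-1.22 (SE 0.27, adjusted p = 0.03998); adjusted p = 0.457 with 6).

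In break signalling and recombination (16 genes), telomerase and shelterin (18 genes) and the mitotic cell cycle (8 genes), 0 were called in either fit. Telomerase and shelterin genes had medians of 0.32 and 0.23 in the 6- and 5-library fits. The proliferation marker Mki67 lay under 0.14 FPKM in all 6 libraries, and 12 of 21 mitotic genes lay under 1 FPKM in all 6.

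Stress pathways other than p53 showed few calls. Of 19 heat shock genes, 0 were called with 6 libraries and 1 rose with 5. It was Dnajb1, a co-chaperone gene, at 7.43, 5.33 and 6.55 and 10.8, 13.8 and 10.8 FPKM (0.67 (SE 0.15, adjusted p = 0.0409); adjusted p = 0.178 with 6). Of 20 endoplasmic reticulum stress genes, Dnajb9 fell with 5 libraries and 0 were called with 6. Dnajb9 stood at 79.4, 8.62 and 55.6 FPKM in saline, replicate 2 the lowest, and 16.7, 26.9 and 23.8 FPKM after ENU (-1.55 (SE 0.23, adjusted p = 0.0183); adjusted p = 0.646 with 6). Of 12 genes of the integrated stress response, Chac1 fell in both fits and 0 rose in either. After median-ratio rescaling Dnajb1 was not called with 5 libraries, nor Chac1 with 6. Of 18 genes of the oxidant-responsive factor NRF2 and of glutathione, 2 rose with 5 libraries and 0 with 6. They were Nfe2l2, the NRF2 gene, from 29.9, 14.8 and 30.1 to 62.8, 63.7 and 60.8 FPKM (1.03 (SE 0.1, adjusted p = 0.00731)), and Gclc, of glutathione synthesis, from 151, 60.03 and 143 to 256, 274 and 244 FPKM (0.8 (SE 0.12, adjusted p = 0.0188)). With 6 libraries their adjusted p-values were 0.113 and 0.179.

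Ephx1, which encodes microsomal epoxide hydrolase and detoxifies reactive epoxides, was the conjugation enzyme gene called in both fits. It stood at 291, 341 and 314 FPKM in saline and 1094, 885 and 1019.6 FPKM after ENU (1.66 (SE 0.19, adjusted p = 0.0267); 5 libraries, 1.72 (SE 0.16, adjusted p = 0.00645)). Of the 27 conjugation genes tested, 1 rose with 6 libraries and 2 with 5, the latter close to the 6.76% higher among all genes. The second was the glutathione transferase gene Gstm4 (0.71 (SE 0.14, adjusted p = 0.0339); adjusted p = 0.146 with 6). After median-ratio rescaling 0 rose with 6 libraries and 1 with 5. Among 23 genes of the cytochrome P450 list, 0 were called with 6 libraries, and 3 rose and 1 fell with 5, or 1 and 1 after median-ratio rescaling of the 5. Cyp2c29, a drug-metabolizing enzyme gene with close paralogues, fell from 827, 508 and 987 to 383, 283 and 362 FPKM (-1.41 (SE 0.18, adjusted p = 0.0147); adjusted p = 0.149 with 6). The xenobiotic receptor gene Nr1i2 rose with 5 libraries (0.58 (SE 0.12, adjusted p = 0.0355); adjusted p = 0.188 with 6).

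Liver functions changed in single genes. Mbl2, a mannose-binding lectin of complement, went from 200.3, 292 and 245 to 658, 622 and 732 FPKM (1.46 (SE 0.21, adjusted p = 0.0426); 5 libraries, 1.59 (SE 0.16, adjusted p = 0.00727)). It was 1 of 29 complement and coagulation genes to rise with 6 libraries. With 5 libraries 3 of the 29 rose, against 6.76% of all genes, among them the partner protease gene Masp2 (0.87 (SE 0.12, adjusted p = 0.0168); adjusted p = 0.101 with 6). With 6 rescaled libraries 0 rose. Of 23 acute phase genes, Orm3 fell with 5 libraries, from 72.3, 49.3 and 53.4 to 12.04, 25.8 and 22.4 FPKM (-1.65 (SE 0.31, adjusted p = 0.0302); adjusted p = 0.105 with 6), and 0 were called with 6. ENU replicate 2 stood apart in this list: serum amyloid gene Saa1, whose copies may share reads, was at 1083, 7727 and 960.0 FPKM in the ENU libraries and 3342, 1999.9 and 3033 FPKM in saline. The metallothionein gene Mt1 did likewise, at 23.2, 647 and 76.7 FPKM after ENU and 352, 530.0 and 431 FPKM in saline. These 2 were named after their values were known, and neither fit called them (adjusted p = 0.7505 and 0.647, and 0.357 and 0.348).

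Bile acid genes had 3 calls with 5 libraries and 0 with 6. Of 12 synthesis genes tested 1 fell, and of 9 transport genes tested 1 rose and 1 fell. The shares among all genes were 6.76% higher and 1.81% lower. Cyp27a1, a sterol hydroxylase gene of bile acid synthesis, went from 519.7, 587 and 520.4 to 314, 299 and 353 FPKM (-0.69 (SE 0.14, adjusted p = 0.0342)). Slc10a1, which takes bile acids up from blood, went from 365, 313 and 383 to 213, 198 and 244 FPKM (-0.78 (SE 0.14, adjusted p = 0.0271)). Abcb4, a phospholipid exporter into bile, rose from 72.7, 56.1 and 83.5 to 129, 148 and 132 FPKM (0.8 (SE 0.13, adjusted p = 0.0218)). With 6 libraries their adjusted p-values were 0.139, 0.167 and 0.114. Rescaling the 5 libraries by median ratio gave 2 lower transport genes in place of 1.

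Of 23 amino acid catabolism genes, 3 fell with 5 libraries and 0 were called with 6. Sds, the serine dehydratase gene, stood at 203, 215 and 295 and 81.6, 107 and 98.3 FPKM (-1.35 (SE 0.2, adjusted p = 0.0173); adjusted p = 0.0694 with 6). Among 20 hepatocyte transcription factor genes, 3 rose with 5 libraries and 0 with 6, with medians of 0.5 and 0.58. After median-ratio rescaling of the 5 libraries 1 member was called. Of 14 pericentral genes, Tbx3 and Axin2, targets of Wnt signalling, rose with 5 libraries by 1.31 (SE 0.12, adjusted p = 0.00661) and 1.19 (SE 0.13, adjusted p = 0.0101), and Slc1a2 fell, at -0.76 (SE 0.16, adjusted p = 0.0389). With 6 libraries 0 pericentral genes were called, and after median-ratio rescaling of the 5 libraries 2 rose and 2 fell.

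Innate immune genes showed calls with 5 libraries and 0 with 6. Of 22 interferon-stimulated genes, 4 rose and 0 fell. Zbp1, a nucleic acid sensor, stood at 2.37, 4.55 and 1.7005 FPKM in saline and 8.17, 5.81 and 9.397 FPKM after ENU (1.52 (SE 0.21, adjusted p = 0.01602)). Irf7, an interferon regulatory factor gene, stood at 24.3, 62.5 and 23.98 FPKM, with replicate 2 above all ENU libraries, and 56.2, 37.8 and 57.2 FPKM after ENU (1.01 (SE 0.19, adjusted p = 0.0313); 0.56 (SE 0.39, adjusted p = 0.461) with 6 libraries). Of 11 nucleic acid sensing genes, 3 rose, among them Dhx58 (0.81 (SE 0.17, adjusted p = 0.0387)), and 1 after median-ratio rescaling of the 5 libraries. Nlrc5, which induces MHC class I genes, was the 1 of 13 class I genes that rose (0.79 (SE 0.12, adjusted p = 0.01998)), against 6.76% higher among all genes. The list medians of interferon-stimulated, sensing and class I genes were 0.08, 0.16 and 0.26 with 5 libraries. Of 15 retroelement silencing genes 0 were called in either fit.

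Summed levels of red cell and of T and NK cell markers were lower in every ENU library than in every saline library. Hbb-bs, a beta globin gene, stood at 72.5, 437 and 145 FPKM in saline, replicate 2 the highest, and 10.5, 33.1 and 11.8 FPKM after ENU. For Hbb-bs the log2 fold change was -2.6 (SE 0.5, adjusted p = 0.0325) with 5 libraries and -3.29 (SE 0.68, adjusted p = 0.106) with 6. Of 8 erythroid markers, 4 globin genes fell with 5 libraries and 0 were called with 6. The estimates of 3 of the 8 lay above 0 in both fits. Their copies are near-identical, so single values are uncertain. The 12 erythroid markers in the table summed to 202, 853 and 314 FPKM in saline and 144, 132 and 127 FPKM after ENU, without overlap. The 14 T and NK cell markers, 0 of which could be tested, summed to 4.74, 9.48 and 1.88 FPKM and 1.46, 0.593 and 0.908 FPKM, also without overlap. MHC class II genes (6 tested) had medians of -1.1 and -0.69 and 0 calls in either fit. Kupffer cell markers summed to 265, 516 and 215 FPKM and 200.4, 236 and 188 FPKM, which overlap. One of 14, Lyz2, fell with 5 libraries (-0.84 (SE 0.19, adjusted p = 0.0471); adjusted p = 0.1598 with 6). The part of these cells in the fall of Cxcl9 was not tested.

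Of the 18 immediate early genes tested, Junb, an AP-1 subunit gene, fell with 5 libraries, from 104, 143 and 98.02 to 29.7, 35.2 and 57.3 FPKM (-1.34 (SE 0.26, adjusted p = 0.0325); adjusted p = 0.0995 with 6). Among 13 core clock genes, Per1 rose with 5 libraries, from 12.6, 8.18 and 11.05 to 21.9, 22.6 and 24.8 FPKM (0.91 (SE 0.12, adjusted p = 0.0147); adjusted p = 0.106 with 6), and 0 passed with 6. Per1 is also induced by stress hormones.

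Housekeeping sets had few calls, though many nuclear respiratory chain genes were lower in every ENU library. Of 78 cytosolic ribosomal protein genes and 30 proteasome genes, 0 were called in either fit. The ribosomal protein median was -0.28 with 6 libraries, 0.05 with 5 and -0.05 after median-ratio rescaling of the 5. In the same order the medians of all genes were 0.25, 0.08 and -0.0047, above the list's median each time. Summed ribosomal protein levels were 23143, 41065 and 18512 FPKM in saline and 19569, 22689 and 22515 FPKM after ENU, with saline replicate 2 far above the rest. Of 50 nuclear genes of the respiratory chain, 2 fell with 5 libraries, Cox5a and Atp5g1 (-0.63 (SE 0.13, adjusted p = 0.0384) and -0.67 (SE 0.11, adjusted p = 0.02296)), and 0 with 6. In 23 of these 50 genes every ENU library lay below every saline library, against 6.33% of all genes, and in 1 above. The list's median was -0.42 with 6 libraries and -0.18 with 5. After median-ratio rescaling of the 5 libraries 7 of the 50 fell, against 305 of all 11707 genes. Of 13 mitochondrially encoded genes, mt-Nd6 fell and mt-Atp8 rose with 5 libraries (-0.95 (SE 0.16, adjusted p = 0.0253) and 1.35 (SE 0.18, adjusted p = 0.0147)), and 0 were called with 6. Since strand is not stated and both overlap other mitochondrial genes or their antisense strand, these values are uncertain.

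Several further lists had a few calls with 5 libraries and 0 with 6, to be read against 6.76% higher and 1.81% lower among all genes. Of 24 ribosome biogenesis genes, 3 rose (Nop2, Rrp1b and Ppan), and of 19 apolipoprotein and lipoprotein assembly genes, 3 rose (Apoa4, Apoa5 and Lcat). Apoa4, a gut and liver apolipoprotein gene induced on fasting, went from 21.99, 27.9 and 15.01 to 41.97, 49.8 and 35.9 FPKM (1.17 (SE 0.2, adjusted p = 0.0247); adjusted p = 0.168 with 6). In NF-kB and cytokine feedback (16 genes) Rela rose and Birc3 fell, and in autophagy and lysosome (16 genes) Map1lc3a rose and Wipi1 fell. Single members rose in 3 lists, namely Nags among 12 urea cycle genes, Irs1 among 20 glucose genes and Mtf1 among 7 metal genes. Sds was the 1 of 13 periportal genes that fell. After median-ratio rescaling of the 5 libraries the urea cycle list had 0 higher and 2 lower, the metal list 0 calls, NF-kB 0 higher and 1 lower, autophagy 1 higher and 3 lower, and the periportal list 2 lower. Reln, a stellate cell marker, fell among 13 (-0.96 (SE 0.17, adjusted p = 0.0267); adjusted p = 0.245 with 6). In sterol efflux, clock output, sex-linked and female-biased genes 0 were called in either fit. The same held for markers of hepatocytes, sinusoidal endothelium, monocytes, cholangiocytes, B cells, neutrophils, dendritic cells, platelets, pancreas and adipocytes.

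**Figure D5:**
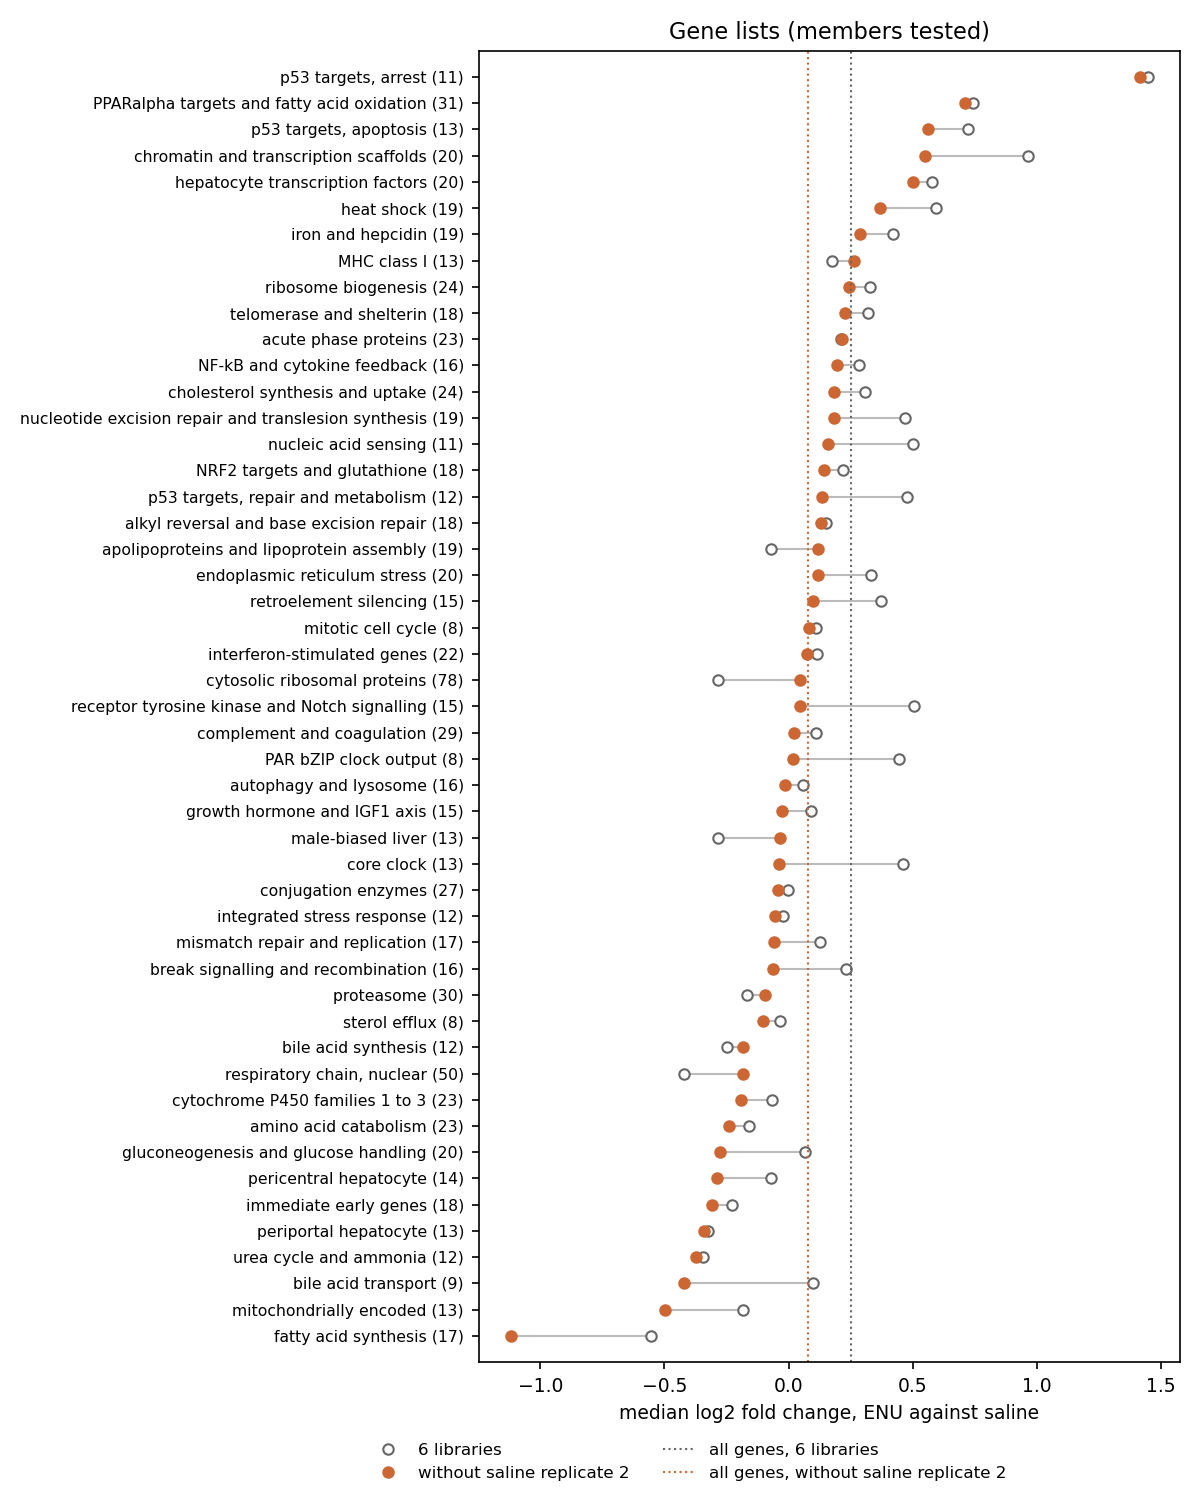
Median log2 fold change of ENU against saline over the tested members of each pathway list with at least 8 of them, with 6 libraries (open) and without saline replicate 2 (filled); dotted lines mark the median of all 11707 genes in each fit. The p53 arrest list stands highest, at 1.45 and 1.42, and fatty acid synthesis lowest, at -0.55 and -1.12.

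The same treatment in WT liver allows the ENU effects to be set side by side, and the question is whether the loss of Tert altered the response. No gene's ENU effect differed between genotypes at an adjusted p under 0.05, by limma over 12 libraries (805 genes at an unadjusted p under 0.05), by voom (866) or by limma without Tert-/- saline replicate 2 (1613), whereas weighting libraries by quality called 17. The WT libraries alone gave 922 genes higher (7.88%) and 203 lower (1.73%). For Cdkn1a the WT libraries held 32.5, 4.699 and 17.03 FPKM in saline and 285, 135 and 224 FPKM after ENU, a log2 fold change of 3.77 (SE 0.6). The Tert-/- effect minus the WT effect was 2.27 (SE 0.75, unadjusted p = 0.0109, adjusted p = 0.659) for Cdkn1a. WT saline was the more variable and the higher group, while ENU levels overlapped between genotypes. For Phlda3 the WT fold change was 4.93 (SE 0.13) and the difference -0.52 (SE 0.27, unadjusted p = 0.0733, adjusted p = 0.7498). Without Tert-/- saline replicate 2 the differences were 2.35 (adjusted p = 0.265) for Cdkn1a and -0.49 (adjusted p = 0.413) for Phlda3.

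Several genes that changed in Tert-/- liver had WT estimates near 0 or of the other sign. Ppp1r10 was at 33.97, 25.2 and 27.6 FPKM in WT saline and 36.6, 24.9 and 41.1 FPKM in WT ENU, a WT fold change of 0.21 (SE 0.19). Its difference between genotypes was 2.0 (SE 0.29, unadjusted p = 1.69e-05, adjusted p = 0.198). The WT fold change of Acot1 was 0.32 (SE 0.27) and of Crat 0.18 (SE 0.32), with differences of 1.72 (SE 0.43, unadjusted p = 0.00184, adjusted p = 0.659) and 2.12 (SE 0.55, unadjusted p = 0.00245, adjusted p = 0.659). For Atoh8 it was 0.07 (SE 0.4), with a difference of 1.78 (SE 0.59, unadjusted p = 0.0111, adjusted p = 0.659). For Phlda1 and Cish the WT estimates were above 0, at 1.34 (SE 0.87) and 1.18 (SE 0.95), with differences of -2.8 (SE 0.99, unadjusted p = 0.0157, adjusted p = 0.659) and -2.56 (SE 1.08, unadjusted p = 0.0356, adjusted p = 0.709). Junb stood at 214, 184 and 91.2 FPKM in WT saline and 195, 125 and 223 FPKM in WT ENU, and its difference was -1.71 (SE 0.49, unadjusted p = 0.00446, adjusted p = 0.659). The clock gene Dbp, uncalled in Tert-/- liver at -0.75, had a WT fold change of 2.97 (SE 0.9). Without Tert-/- saline replicate 2 the differences were 2.0 for Ppp1r10, 1.7 for Acot1, 2.22 for Crat, 2.17 for Atoh8, -2.9 for Phlda1, -2.66 for Cish and -1.54 for Junb, with adjusted p-values from 0.135 to 0.361. None of these differences passed after adjustment in either fit, so none is shown to depend on genotype.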

How the data were processed

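RNA was isolated from liver with TRIzol and libraries were made with a NEBNext Ultra kit, per the labels' protocols. HISAT2, HTSeq and the build mm10 are named in the submitters' processing notes. Versions, annotation release and strandedness are not stated in what was used here, so overlapping antisense genes cannot be told apart. The authors deposited 1 table of FPKM values, scaled for gene length and library size per the file headers. A table line that held no values and some list members are not reported here. Since FPKM is no count, the values log2(FPKM + 1) were tested in R 4.3.3 with limma 3.58.1 and its mean-variance trend, with no covariate, two-sided tests and Benjamini-Hochberg adjustment over 11707 genes. Fold changes are differences on that scale and understate changes of low genes. The difference between genotypes was tested in 1 model over all 12 libraries.

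Whole reads were recovered from the FPKM values with GENCODE M21 transcript lengths for 26523 of 26524 expressed genes (within 0.01), which gave the totals quoted and an alternative test with voom. Libraries of a group differed by more than counting noise (chi-square per gene 52.1 or more in every pair), so none was taken as a second deposit of another library. That does not show that they are separate animals. The spread between libraries sets the errors given, not depth. The steps were tested on simulated data.

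The libraries and the 70 gene lists were chosen with earlier results of these data known. The genes named were drawn from Tert, up to 15 largest changes each way in the 6-library fit and 10 each way without saline replicate 2. These changes were taken among genes past the threshold with no overlap, a curated symbol and a mean of 1 FPKM or more in the group with the higher level. From each list up to 4 members past the threshold in either fit were drawn, or otherwise the 2 most abundant. Not every gene drawn is described above. Among the largest changes without saline replicate 2, Gadd45b, Cox6b2, Cyp2d41-ps, Hcn3, Upp2, Mup-ps13 and Mup-ps16 are not. Alternatives covered libraries left out, all 12 libraries, pseudocount, filters, scaling, weights, a replicate block and voom.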

Additional observations from a re-analysis of the deposited data

How the results depend on the processing

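The count of 58 changed genes (48 higher, 10 lower) moved with most settings. Leaving out each library in turn gave 5 to 1003 changed, 5 to 791 higher and 0 to 212 lower, the upper ends being those without saline replicate 2. A shared spread over all 12 libraries gave 1198 (1018 higher, 180 lower), and weights for library quality gave 2307 (1762 higher, 545 lower). A pseudocount of 0.1 gave 24 (19 and 5), no filter on low values 10 (8 and 2), a minimum of 5 FPKM 15 (13 and 2), median-ratio rescaling 34 (25 and 9), quantile normalization 59 (40 and 19) and voom on recovered reads 23 (17 and 6). Chosen after seeing the data, median-ratio rescaling without saline replicate 2 gave 791 (486 and 305), and voom without it 849 (509 and 340). The cause was not tested. The difference between genotypes stayed at 0 calls when each of the 12 libraries was left out and under the other settings tried, both added ones without saline replicate 2 included, except quality weights, which called 17. The quality weights used a gene-by-gene estimator, chosen after the default did not converge. Under none of these settings did a named gene past the threshold in the 6-library fit turn direction.

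Labels give both groups the same replicate numbers, but they share only a number. The deviations of same-numbered libraries from their group means correlated at -0.024, 0.022 and 0.003. With the number as a replicate block the counts were 18 changed, 11 higher and 7 lower, and 0 for the difference between genotypes.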
